A study of Mus musculus with 4 samples.

Results

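Microglia are the resident macrophages of the brain. Their precursors arise in the yolk sac and enter the neural tube before most cortical neurons are born, so that the embryonic cortex already holds a sparse population of them. They depend on the receptor CSF1R for survival, sense neuronal CX3CL1 through CX3CR1 and nucleotides through P2RY12, secrete the complement protein C1q, and signal through the receptor TREM2 with its adaptor TYROBP. Described here are 9 genes of these cells, Cx3cr1, P2ry12, Csf1r, Aif1, C1qa, C1qb, C1qc, Trem2 and Tyrobp, chosen by name from the 26433 genes of a count table. All 9 had a row in the table and all 9 passed the filter on low counts.

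RNA of telencephalic tissue, labelled cerebral cortex, was sequenced from mouse embryos at embryonic day 15, from 2 cKI f/+ and 2 WT libraries. The cKI f/+ embryos carry 1 copy of human SERPINA3 with a flag tag in the Rosa26 locus, behind a CAG promoter and a floxed stop cassette that Nestin-Cre removes. Nestin-Cre acts in neural progenitors and their progeny, a lineage to which microglia do not belong. The strain is labelled C57BL/6, the founders of the knock-in line were bred with B6D2F2 mice, and the WT embryos are littermates whose Cre status is not stated. The labels speak of triplicates, and 2 libraries of each genotype were analysed here, named KI2, KI3, WT1 and WT3 in the table. The paper's general definition of replicates in mice is that of different embryos, but how many embryos each library holds is not stated, so p-values measure the spread between these libraries, which may be technical in part.

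Library totals were 17736663 counts for KI2 and 18119444 for KI3, and 17615212 for WT1 and 17423512 for WT3. Levels are given as CPM, in which each library is scaled to the same total. A floor of 3 counts corresponded to between 0.166 and 0.172 CPM, which covers counting error only, and every member was above it in all 4 libraries. Libraries of the same genotype differed beyond sampling noise, with a chi-square per degree of freedom of 5.63 for the cKI f/+ pair and 7.49 for the WT pair over genes with at least 10 counts.

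None of the 9 genes was called different between cKI f/+ and WT cortex, at an adjusted p under 0.05 over all 15786 tested genes with edgeR's quasi-likelihood test. By this rule 0.120% of all tested genes passed, of which 11 had higher and 8 had lower counts in the knock-in. Cx3cr1, lower in the knock-in, was the 1 gene of the 9 with an unadjusted p under 0.05, beside 4.60% of all tested genes. DESeq2 and edgeR's likelihood ratio test also called 0 of the 9. An exact two-sided permutation of 2 against 2 libraries cannot go below p = 0.333, and the model borrows its spread from all genes. The groups did not overlap in CPM in 4 of the 9 genes, beside 33.9% of all tested genes. In all 4, namely Cx3cr1, P2ry12, Csf1r and C1qb, both WT libraries were higher, a direction found in 2835 of the 15786 tested genes, while both cKI f/+ libraries were higher in 2523. With TMM scaling, which sets libraries to a common composition, C1qa also separated, with both cKI f/+ libraries higher. The margin was very small, since KI2 and WT1 both had 77 counts of C1qa.

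**Figure D1:**
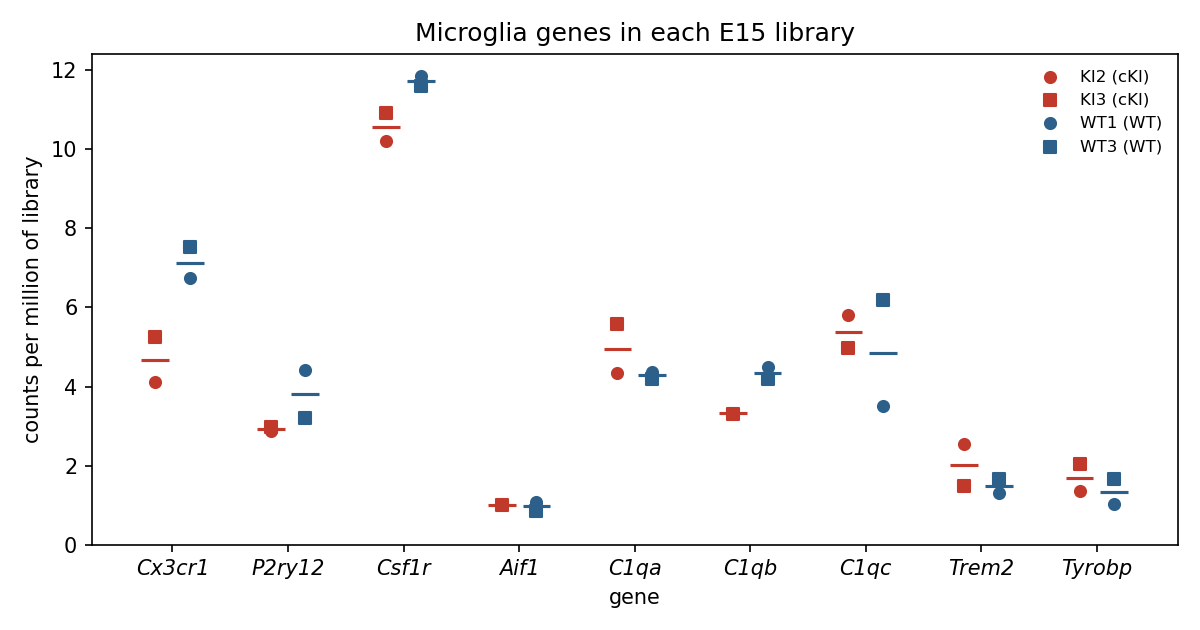
CPM, counts scaled to the library total (y axis, from 0) for the 9 microglia genes (x axis), with 1 point per library and a line at the mean of each genotype. The WT points lie above the cKI f/+ points for Cx3cr1, P2ry12, Csf1r and C1qb, and the genotypes overlap for the other 5 genes.

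The receptors come first. Cx3cr1, the receptor of the chemokine fractalkine, had 73 and 95 counts in KI2 and KI3, against 119 and 131 in WT1 and WT3. Both WT libraries were higher and the groups did not overlap. The level was 4.68 ± 0.797 CPM in cKI f/+ and 7.14 ± 0.540 CPM in WT mice (SD, n = 2 each). The log2 fold change of cKI f/+ against WT was -0.60, with a standard error of 0.20 and a 95% interval from -1.06 to -0.14. In edgeR's quasi-likelihood test its adjusted p was 0.969. DESeq2 gave it no unadjusted p under 0.05.

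P2ry12, a purinergic receptor that guides microglial processes, had 51 and 54 counts in KI2 and KI3, against 78 and 56 in WT1 and WT3. The groups did not overlap, but WT3 lay close to the cKI f/+ libraries and WT1 stood above the rest. The log2 fold change was -0.38, with an interval from -0.95 to 0.19, and it was -0.13 without WT1. Csf1r, the receptor of CSF1 and IL-34, had 181 and 198 counts in KI2 and KI3, against 209 and 202 in WT1 and WT3. The WT libraries were higher by a small margin. The level of Csf1r was 10.6 ± 0.511 CPM in cKI f/+ and 11.7 ± 0.192 CPM in WT mice (SD, n = 2 each), and its log2 fold change was -0.14, with an interval from -0.47 to 0.18. Counted together, Cx3cr1, P2ry12 and Csf1r reached 17.2 and 19.2 CPM in KI2 and KI3, against 23.0 and 22.3 in WT1 and WT3. Their sum was lower in both cKI f/+ libraries, a description of an unplanned grouping to which no test was applied.

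The 3 genes of C1q encode the A, B and C chains, which assemble into the recognition molecule of the classical complement pathway. C1qa had 77 and 101 counts in KI2 and KI3, against 77 and 73 in WT1 and WT3. KI3 was high and the other libraries were alike, and the log2 fold change of 0.22 had an interval from -0.28 to 0.71. C1qb had 59 and 60 counts in KI2 and KI3, against 79 and 73 in WT1 and WT3. Here both WT libraries were higher, with 3.32 ± 0.0107 CPM in cKI f/+ and 4.34 ± 0.209 CPM in WT mice (SD, n = 2 each). The log2 fold change of C1qb was -0.38, with an interval from -0.87 to 0.11. C1qc had 103 and 90 counts in KI2 and KI3, against 62 and 108 in WT1 and WT3. The WT libraries lay on either side of the cKI f/+ libraries, and the log2 fold change of 0.15 became -0.20 without WT1. The intervals of all 3 chains include 0 and overlap, and a difference between the chains was not tested. Together the chains summed to 13.5 and 13.9 CPM in KI2 and KI3, against 12.4 and 14.6 in WT1 and WT3, with the cKI f/+ libraries between the WT libraries. As a share of the summed TPM of the chains, C1qb made up 29.9% in KI2 and 27.7% in KI3, and 40.6% in WT1 and 34.7% in WT3. The share of C1qb was thus higher in both WT libraries. That of C1qc was lowest in WT1, with 17.96%, and between 23.4% and 29.4% in the other libraries.

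Trem2, a lipid-sensing receptor, had 45 and 27 counts in KI2 and KI3, against 23 and 29 in WT1 and WT3. KI2 stood apart and KI3 lay within the WT range. The log2 fold change of Trem2 was 0.44, with an interval from -0.38 to 1.26, and it was -0.0040 without KI2. Tyrobp, the adaptor that carries the signal of TREM2, had 24 and 37 counts in KI2 and KI3, against 18 and 29 in WT1 and WT3. The groups overlapped, and the log2 fold change was 0.34, with an interval from -0.52 to 1.21. In KI2 Trem2 was high and Tyrobp was not, and in KI3 the reverse held. Trem2 and Tyrobp together summed to 3.89 and 3.53 CPM in KI2 and KI3, against 2.33 and 3.33 in WT1 and WT3. In counts this sum was 69 and 64 in KI2 and KI3, against 41 and 58 in WT1 and WT3. It was higher in both cKI f/+ libraries, opposite to the sum of Cx3cr1, P2ry12 and Csf1r, but KI3 and WT3 lay close together. The sums of these receptors, of the C1q chains and of Trem2 with Tyrobp were not planned, and none was tested. Aif1, which encodes the actin-binding protein IBA1 used to stain microglia, had 18 and 18 counts in KI2 and KI3, against 19 and 15 in WT1 and WT3. It was the gene with the fewest counts of the 9, the groups overlapped, and its log2 fold change of 0.05 became -0.10 without WT3. The interval of Aif1 ran from -0.82 to 0.93, and those of Trem2, Tyrobp and Aif1 were the 3 widest of the 9.

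**Figure D2:**
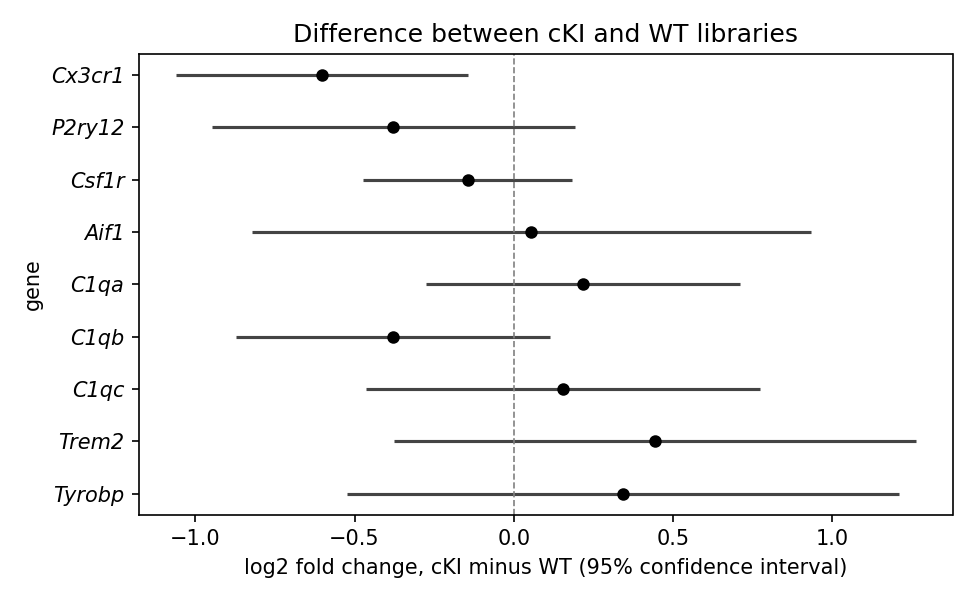
Log2 fold change of cKI f/+ against WT (x axis) for the 9 microglia genes (y axis), with points for the estimates of edgeR's quasi-likelihood fit and lines for their 95% confidence intervals. The estimates run from -0.60 for Cx3cr1 to 0.44 for Trem2, and the interval of Cx3cr1 lies below 0 while the other 8 include it.

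Leaving out single libraries kept the log2 fold change of Cx3cr1 between -0.79 and -0.45, that of C1qb between -0.43 and -0.33 and that of Csf1r between -0.19 and -0.11. For P2ry12 the range was wider, from -0.59 to -0.13. Those of C1qa, from 0.026 to 0.37, and of Tyrobp, from 0.018 to 0.74, came near 0 without 1 library. Aif1, C1qc and Trem2 changed sign.

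Over the 9 genes, 5 log2 fold changes were above 0 and 4 below, with a median of 0.05, beside a median of 0.0043 over all tested genes. The summed level of the 9 genes was 35.6 and 37.5 CPM in KI2 and KI3, against 38.8 and 41.1 in WT1 and WT3. Both WT libraries were higher, with 36.6 ± 1.38 CPM in cKI f/+ and 40.0 ± 1.60 CPM in WT mice (SD, n = 2 each). Median and sum thus differed in sign with all 4 libraries. The median was below 0 without KI2 (-0.0040), WT1 (-0.13) or WT3 (-0.095), and it was -0.26 over the 6 members with at least 50 counts on average, chosen after the data were seen. The sum gives weight to the receptor genes with many counts, and counting error alone gave 95% intervals from 34.8 to 40.5 CPM for KI3 and from 36.0 to 41.9 CPM for WT1, which overlap. None of the 9 genes was called, so a lower level of microglial RNA is not shown. In a bulk tissue, a change in the number of microglia and a change in RNA per microglial cell cannot be told apart.

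Levels of different genes were compared per length, as TPM, the counts per kilobase of exon scaled to the same total in each library. Averaged over the 4 libraries, the order by exon length was C1qa with 15.1 TPM, C1qb with 11.9 TPM, C1qc with 8.98 TPM, Tyrobp with 7.70 TPM, Csf1r with 6.55 TPM, P2ry12 with 4.51 TPM, Cx3cr1 with 4.45 TPM, Aif1 with 2.19 TPM and Trem2 with 1.20 TPM. The chains of C1q led, and Csf1r, first in raw counts, was the fifth here, with exons that cover 5774 bases. Neighbours in this order overlapped over the 4 libraries except that Cx3cr1 lay above Aif1 and Aif1 above Trem2. The cKI f/+ means followed the same order. In the WT means, Csf1r with 6.93 TPM lay above Tyrobp with 6.84 TPM, and Cx3cr1 with 5.40 TPM above P2ry12 with 5.14 TPM. Cx3cr1 and Aif1 overlapped by the longest transcript and by the longest protein-coding transcript. By the longest transcript, C1qc with 11.0 TPM lay above C1qb with 9.16 TPM, so the order of the chains depends on the length used. The place of Trem2 also depends on the transcript used. Its exons cover 4946 bases in all, while its longest protein-coding transcript has 1088 bases, and by that length, chosen after the data were seen, Trem2 reached 3.87 TPM and was the sixth. The range of Trem2 then overlapped those of Csf1r and P2ry12.

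The label of the genes was checked against other cells of the myeloid lineage. Of 20 other microglia and macrophage surface genes, 19 were tested, 0 were called, and 15 of 19 had a log2 fold change below 0, with a median of -0.05. Their sum was 68.3 and 62.5 CPM in KI2 and KI3, against 66.0 and 68.4 in WT1 and WT3, with Olfml3, a secreted protein of microglia, as the most abundant. Ctss, a lysosomal protease that was picked after its values were seen, had 87 and 83 counts in KI2 and KI3, against 106 and 124 in WT1 and WT3, and it was the 1 gene of this list with an unadjusted p under 0.05. Of the abundant genes of the list, 2 had a log2 fold change above 0. Laptm5, a lysosomal membrane protein, had 167 and 162 counts in KI2 and KI3, against 138 and 153 in WT1 and WT3, and a log2 fold change of 0.15, from 0.069 to 0.24 with a library left out. Cd68, also lysosomal, had 168 and 221 counts in KI2 and KI3, against 141 and 171 in WT1 and WT3, and a log2 fold change of 0.29, from 0.095 to 0.44 with a library left out.

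Markers of macrophages at the borders of the brain were at mixed levels. The 9 such genes in the table summed to between 15.5 and 19.7 CPM, most of it from Stab1, a scavenger receptor that endothelial cells also make, and 0 of the 4 tested were called. The mannose receptor gene Mrc1 had 16 and 23 counts in KI2 and KI3, against 17 and 8 in WT1 and WT3, and Dab2, an endocytic adaptor, had between 85 and 100 counts. Cd163 had at most 2 counts in a library and Ms4a7 at most 1. The part of border macrophages in the levels of the 9 genes was not tested. Of 8 listed monocyte and neutrophil genes, Ly6c2, S100a8 and S100a9 had no row in the table, and the other 5 were at or under 3 counts in every library, Ccr2, a chemokine receptor of monocytes, being the most abundant. Of 6 listed lymphocyte genes, Cd3e, Cd3g and Ncr1 had no row, and the other 3 summed to between 9 and 12 counts, with Cd79a as the most abundant. The part of blood leukocytes in the levels of the 9 genes was not tested.

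Among myeloid transcription factors, 7 of 10 were tested and 0 called. Spi1, which encodes the factor PU.1 required for the lineage, had 21 and 23 counts in KI2 and KI3, against 22 and 24 in WT1 and WT3, without separation of the groups. Sall1 and Sall3 are also made by neural progenitors, and Sall3 was the 1 gene with an unadjusted p under 0.05, with a log2 fold change of -0.35, which was -0.22 without WT1. Of the ligands and growth factors of the 9 genes, 7 of 8 were tested and 0 called. Apoe, a ligand of TREM2, had 842 and 875 counts in KI2 and KI3, against 596 and 731 in WT1 and WT3. Both cKI f/+ libraries were higher, with a log2 fold change of 0.34 and an adjusted p of 0.969 in edgeR's quasi-likelihood test. The log2 fold change of Apoe was 0.20 without WT1 and 0.51 without WT3. Cd200 and Cxcl12, a brake on myeloid cells and a chemokine, were the other abundant ligands besides Gas6.

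Of the signalling genes around Trem2 and Tyrobp, 7 of the 11 in the table were tested and 0 called, 6 of the 7 with a log2 fold change below 0. Syk, the kinase that binds phosphorylated TYROBP, had 43 and 51 counts in KI2 and KI3, against 70 and 40 in WT1 and WT3, so that the groups overlapped. Vav1, an exchange factor of haematopoietic cells picked after its values were seen, had 12 and 16 counts in KI2 and KI3, against 24 and 31 in WT1 and WT3, and it alone in this list had an unadjusted p under 0.05. Of the complement partners of C1q, 7 of the 13 in the table were tested and 0 called. Of the listed C1r and C1s proteases, all given after their values were seen, C1ra and C1s1 had at most 3 counts in any library, C1s2 had 10 and 7 counts in KI2 and KI3, against 3 and 4 in WT1 and WT3, and C1rb had no row in the table. Serping1, the inhibitor of C1, had 284 and 298 counts in KI2 and KI3, against 349 and 340 in WT1 and WT3, with a log2 fold change of -0.27 and an adjusted p of 0.969 in edgeR's quasi-likelihood test.

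Axon tract microglia are a state with phagocytic genes seen around birth. Of 11 listed genes, 7 were tested and 0 called, and Fabp5, Ctsb and Ctsd are made by many cells. Gpnmb, Itgax, Clec7a and Spp1 are given here after their values were seen. Gpnmb, which was not tested, had 1 and 1 counts in KI2 and KI3, against 4 and 3 in WT1 and WT3. Itgax and Clec7a had at most 3 counts in any library, while Spp1, which encodes osteopontin, had 11 and 24 counts in KI2 and KI3, against 11 and 23 in WT1 and WT3. Cd63, a tetraspanin of late endosomes, had 770 and 799 counts in KI2 and KI3, against 525 and 666 in WT1 and WT3, with a log2 fold change of 0.37, an unadjusted p under 0.05 and an adjusted p of 0.969 in edgeR's quasi-likelihood test. The log2 fold change of Cd63 was 0.20 without WT1 and 0.56 without WT3. Cd63 averaged 38.9 CPM over the 4 libraries, against 11.1 CPM for Csf1r, and which cells made it was not tested.

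By the pattern over the 4 libraries, the 5 listed genes most like the sum of the 9, of 83 compared, included Spi1, Esam, Cldn5 and Cd93. The measure was the root mean square difference of centred log2 CPM, which was 0.0275 for Spi1 and 0.0429 for Cd93, against a median of 0.188. Cldn5 and Esam are junction genes of endothelium, and Cd93 is a surface receptor of endothelial and myeloid cells. Over 4 libraries such likeness is a description.

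Markers of other tissues differed between the libraries. Of 7 meningeal fibroblast genes, 6 were tested and 0 called, yet the collagens Col1a1, Col1a2 and Col3a1 and the proteoglycan Dcn had an unadjusted p under 0.05, all 4 with higher counts in cKI f/+ mice. The other 2 tested genes, Foxc1 and Foxd1, named after their values were seen, had log2 fold changes of -0.49 and -0.21. All 7 genes together summed to 395 and 367 counts in KI2 and KI3, against 195 and 209 in WT1 and WT3, and the most abundant was Col3a1. Of 5 choroid plexus genes, 3 were tested and 0 called, and the sum was 8.34 and 63.6 CPM in KI2 and KI3, against 0.511 and 2.18 in WT1 and WT3. Ttr, the transthyretin of choroid plexus, had 116 and 956 counts in KI2 and KI3, against 0 and 4 in WT1 and WT3. Globin and erythroid genes summed to 506 and 384 CPM in KI2 and KI3, against 509 and 538 in WT1 and WT3, with Hbb-bs as the most abundant, 0 of 8 called and 3 with an unadjusted p under 0.05, all lower in cKI f/+ mice (Hba-a2, Hbb-bt and Alas2). Endothelial genes summed to between 99.6 and 112 CPM, with 0 of 8 called and Cldn5 as the most abundant. Cortical progenitor and neuron genes summed to between 5117 and 5520 CPM, with 0 of 10 called and Tubb3 as the most abundant. DESeq2 also called 0 genes of these lists, while edgeR's likelihood ratio test called 2 meningeal genes (Col1a1 and Col1a2) and 1 choroid plexus gene (Ttr), and leaving out a library gave 0 to 2 and 1 to 3. The part of meninges, choroid plexus or blood in the levels of the 9 microglia genes was not tested.

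All 5 sex-linked genes were called. Xist, the RNA of the inactive X chromosome, had 13223 and 11882 counts in KI2 and KI3, against 5 and 5 in WT1 and WT3, and Kdm5d on chromosome Y had 0 and 0 counts, against 951 and 918. Sex and genotype therefore separate these libraries in the same way and cannot be told apart for any of the 9 genes. Glo1, a glyoxalase given as a reference, had 1943 and 2129 counts in KI2 and KI3, against 1237 and 1253 in WT1 and WT3, with a log2 fold change of 0.68, a standard error of 0.08 and an adjusted p of 0.0106 in edgeR's quasi-likelihood test.

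The genes lie on 6 chromosomes of the build GRCm38. C1qb, C1qc and C1qa are neighbours on chromosome 4, at chr4:136880129-136886187, chr4:136889804-136893065 and chr4:136895917-136898803, all on the minus strand. Ephb2 and Epha8, receptor kinases of axon guidance, are the next tested genes on either side, with log2 fold changes of 0.19 (from 0.11 to 0.25 with a library left out) and 0.50 (from 0.18 to 0.91), and neither was called. Cx3cr1 (ENSMUSG00000052336) is annotated at chr9:119901616-120069879, an interval that Wdr48, Gorasp1 and Csrnp1 overlap. P2ry12 lies at chr3:59216272-59262871, within Med12l on the opposite strand. The 3' part of Csf1r shares 873 of its 5774 exon bases with Hmgxb3 on the opposite strand. Whether the counting used strand is not given in the sources used here, so reads of Csf1r and Hmgxb3 there cannot be told apart. Hmgxb3 had a log2 fold change of -0.08, and none of the tested neighbours of the 9 genes was called.

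RefSeq promoters (GRCm38.p6) matched 6 of the 9 genes. The letters GAGGAA, a sequence that ETS factors such as PU.1 can bind, were searched on both strands. They were held by 4 of the 6 promoters, namely C1qb, C1qc, Aif1 and Trem2, beside 28.3% of 32851 promoters. The longer GAGGAAGT, which contains GAGGAA, was found in C1qc and in 3.20% of all promoters. The matches are shown with 12 bases on either side, to place the letters in their context, with GAGGAA or its reverse complement in capitals. The sequences are written along the strand of the gene. They lie at chr4:136886213-136886242 and chr4:136893090-136893119 for C1qb and C1qc and at chr17:35176042-35176071 for Aif1, each written on the minus strand, and at chr17:48346349-48346378, written on the plus strand, for Trem2. GAGGAA itself is on the strand of the gene in C1qb and on the other strand in C1qc, Aif1 and Trem2. A match describes letters only, and other sequences that ETS factors bind were not searched.
C1qb: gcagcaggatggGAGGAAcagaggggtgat
C1qc: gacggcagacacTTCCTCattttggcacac
Aif1: ataggcacccagTTCCTCcatcctattgtt
Trem2: agcctcctttccTTCCTCcctccctcacgc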

How the data were processed

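Libraries of embryonic day 15 telencephalic RNA were read on an Illumina HiSeq, and the authors deposited raw counts of reads per gene. The submitters' processing notes name TopHat2 2.0.12, Bowtie2 2.2.3, HTSeq 0.6.0 and the build mm9, while the gene positions of the table are those of GRCm38. The counting options are not given in the sources used here. The deposited table also holds the authors' own comparison (fold changes and p-values), which was not used. Columns were assigned to a genotype by name, and single columns to no labelled sample.

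Counts of 26433 genes were filtered, TMM-normalized and tested with edgeR 4.0.16 in R 4.3.3 (quasi-likelihood test, 15786 genes, Benjamini-Hochberg adjustment, threshold 0.05), with a biological coefficient of variation of 8.72%. The standard error is the log2 fold change over the square root of F. The fit was tested on simulated data. Alternatives were DESeq2 1.42.0, the likelihood ratio test, other normalizations and filters, leaving out each library in turn, and a fit without the sex chromosomes. Exon lengths come from GENCODE M21, which holds 26378 of the identifiers. The members and the gene lists were chosen with earlier results of these data known. Named were the 9 members, the called or else the 4 most abundant genes of each list, the 5 genes nearest in pattern, overlapping or neighbouring genes, Glo1 and the sex-linked genes. Other listed genes with an unadjusted p under 0.05 (Ctss, Vav1, Hba-a2 and Alas2) were added after their values were seen. Protein sequences were not used here, and results of some single genes under the rule are not reported.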

Additional observations from a re-analysis of the deposited data

How the results depend on the processing

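No paired analysis was possible because the labels give the genotypes no shared replicate number, and of the columns only KI3 and WT3 share one. None of the 9 members was called under any of the 12 alternatives, with adjusted p-values of at least 0.634. The total of 19 called genes was 54 by the likelihood ratio test and 6 where each library had to hold at least 10 counts, 11 without the sex chromosomes, and between 46 and 71 with a library left out, where the lone library of a genotype is assumed to vary like the others.
With a library left out, the median log2 fold change of the members ran from -0.13 to 0.018, and over the 6 members with at least 50 counts on average, chosen after the data were seen, it was -0.26. The log2 fold changes of 3 members changed sign with a library left out, Aif1 from -0.095 to 0.23, C1qc from -0.20 to 0.62 and Trem2 from -0.0040 to 0.78. Other named genes that did so were not called with all 4 libraries. They were Olfml3 from -0.24 to 0.19, Sall1 from -0.10 to 0.17, Irf8 from -0.064 to 0.22, Cd200 from -0.032 to 0.24, Inpp5d from -0.14 to 0.15, Lyn from -0.25 to 0.16, Syk from -0.59 to 0.20, Calr from -0.015 to 0.042 and Lrp1 from -0.096 to 0.14. Further ones were Fabp5 from -0.030 to 0.13, Ctsb from -0.017 to 0.097, Dab2 from -0.13 to 0.062, F13a1 from -1.75 to 0.12, Hba-a1 from -0.43 to 0.30, Hbb-y from -0.35 to 0.10, Kdr from -0.16 to 0.17, Pecam1 from -0.014 to 0.16, Folr1 from -0.18 to 2.21, Tubb3 from -0.11 to 0.089 and Neurod6 from -0.20 to 0.0024. The last were Wdr48 from -0.16 to 0.17, Csrnp1 from -0.070 to 0.51, Scn11a from -0.67 to 0.27, Slc25a38 from -0.041 to 0.12, Med12l from -0.33 to 0.32, Igsf10 from -0.042 to 0.62, Hmgxb3 from -0.24 to 0.093, Slc26a2 from -0.11 to 0.21, Nfkbil1 from -0.16 to 0.084, Nfya from -0.082 to 0.099 and Nfkbid from -0.24 to 0.0027. Values near 0 also changed sign with the normalization or filter. With upper-quartile normalization they were 0.0029 for Olfml3, 0.0073 for Inpp5d and 0.0051 for Wdr48, with library-size scaling -0.000227 for Kdr and -0.000662 for Nfya, and with no filter -0.000807 for Kdr and -0.000620 for Nfya. Of the lists, meningeal genes had 2 called and choroid plexus genes 1 with the likelihood ratio test, and with a library left out meningeal genes had 0 to 2, choroid plexus genes 1 to 3 and globin genes 0 to 1. Sex-linked genes had 0 called where each library had to hold 10 counts or without the sex chromosomes, since both leave them out. Without Csf1r, chosen after the data were seen, the sum of the members was 25.4 and 26.6 CPM in KI2 and KI3, against 27.0 and 29.5 in WT1 and WT3. Per length of the longest transcript, the levels were 11.5 TPM for C1qa, 9.16 for C1qb, 6.17 for Csf1r, 3.42 for Cx3cr1 and 2.94 for Aif1. Per longest protein-coding transcript, chosen after the data were seen, they were 10.7 for C1qa, 8.48 for C1qb, 5.71 for Csf1r, 3.87 for Trem2, 3.47 for P2ry12, 3.17 for Cx3cr1 and 2.72 for Aif1. The cause of these shifts was not tested, except that a length divides the counts and that fewer genes or libraries enter the fits named so. Trem2, Tyrobp and Aif1 had under 50 counts in every library, and the part of depth in the width of their intervals was not tested.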
